A study of Mus musculus with 9 samples.

Results

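The 10 genes described here are the core genes of the circadian clock and its nearest outputs: Per1, Per2, Per3, Arntl, Clock, Npas2, Cry1, Cry2, Nr1d1 and Dbp. They were chosen by gene symbol from a fixed list, 10 of the 54532 genes in the deposited table, and all 10 were expressed highly enough to be tested in every comparison. RNA was sequenced from brain cortex of 3 male mice of each of the inbred strains C57BL6/J (B6), C3H/HeJ (C3H) and WSB/EiJ (WSB), aged 8 to 12 weeks, with no treatment in any group. B6, whose genome is the mouse reference, and C3H are classical laboratory strains, and WSB descends from wild mice. All came from the Jackson Laboratory and were then bred locally, and the tissue was frozen before RNA was extracted. The hour at which each cortex was taken and the light schedule of the mice are not given in the sources used here, so the strain of a mouse and the time of day at which it was sampled cannot be told apart.

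In mouse cells the transcription factors ARNTL (also called BMAL1) and CLOCK, or NPAS2 in its place, bind E-box sequences as a pair and switch on the Per and Cry genes, Nr1d1 and Dbp. PER and CRY proteins then block that pair, NR1D1 (REV-ERB alpha) represses Arntl, and DBP acts on D-box sequences, so the loop runs with a period of about a day. In nocturnal mice the RNAs of Dbp, Nr1d1 and the Per genes peak between day and evening in most tissues, cortex included, whereas Arntl, Npas2 and Clock peak at the opposite phase, near the end of the night. Cry1 peaks later than the Per genes and Cry2 has a weak rhythm. A sampling time that differed between strains could therefore move the day-to-evening genes and the late-night genes in opposite directions. Opposite signs are not specific to such a shift, because the genes of the loop also act on each other, as NR1D1 does on Arntl. Genes of the same group need not peak at the same hour either. The signs are given below as a description, and their cause was not tested.

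The promoters of these genes were searched for the sequences named above. RefSeq sequences of 300 bases around a transcription start, most of them upstream (GRCm38.p6), were found for 9 of the 10 genes, with 13 starts in all. The promoters below are those of the genes that differed in any strain comparison and had a sequence, each written in the direction of the gene. Per1 and Arntl each have 2 starts in the table, and only the window with a match is shown; the other window of each, Per1 at chr11:69099902-69100201 and Arntl at chr7:113207215-113207514, held none of the letters. Capitals mark an E-box (CACGTG), an E-prime box (CACGTT), a D-box (TTATGNAA) or the core of the element bound by NR1D1 and the ROR receptors (TAGGTCA or TGGGTCA), searched on both strands.

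Per1, chr11:69098699-69098998, plus strand: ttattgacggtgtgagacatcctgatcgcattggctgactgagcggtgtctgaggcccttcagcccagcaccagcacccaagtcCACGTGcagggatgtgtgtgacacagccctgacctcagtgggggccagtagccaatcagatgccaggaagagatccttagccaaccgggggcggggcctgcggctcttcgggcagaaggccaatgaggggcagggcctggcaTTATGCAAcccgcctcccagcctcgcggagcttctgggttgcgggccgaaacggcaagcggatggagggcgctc
Per3, chr4:151044616-151044915, minus strand: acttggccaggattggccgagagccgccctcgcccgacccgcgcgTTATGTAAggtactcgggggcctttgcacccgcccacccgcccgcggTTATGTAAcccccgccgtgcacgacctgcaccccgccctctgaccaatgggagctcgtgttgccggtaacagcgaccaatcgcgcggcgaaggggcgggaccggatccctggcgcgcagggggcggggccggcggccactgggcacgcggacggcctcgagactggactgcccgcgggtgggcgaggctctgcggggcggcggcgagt
Nr1d1, chr11:98775328-98775627, minus strand: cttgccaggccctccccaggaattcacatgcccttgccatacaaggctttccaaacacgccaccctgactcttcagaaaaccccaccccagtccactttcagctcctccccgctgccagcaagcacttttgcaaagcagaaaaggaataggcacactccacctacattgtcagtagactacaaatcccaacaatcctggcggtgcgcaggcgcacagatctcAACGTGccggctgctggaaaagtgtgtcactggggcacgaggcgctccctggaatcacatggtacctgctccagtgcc
Arntl, chr7:113207261-113207560, plus strand: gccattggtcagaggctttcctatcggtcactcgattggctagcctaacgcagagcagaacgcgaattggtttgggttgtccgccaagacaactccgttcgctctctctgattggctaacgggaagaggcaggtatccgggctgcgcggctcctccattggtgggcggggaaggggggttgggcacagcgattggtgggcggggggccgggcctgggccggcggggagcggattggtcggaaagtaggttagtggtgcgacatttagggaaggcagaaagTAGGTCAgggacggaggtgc
Dbp, chr7:45704997-45705296, plus strand: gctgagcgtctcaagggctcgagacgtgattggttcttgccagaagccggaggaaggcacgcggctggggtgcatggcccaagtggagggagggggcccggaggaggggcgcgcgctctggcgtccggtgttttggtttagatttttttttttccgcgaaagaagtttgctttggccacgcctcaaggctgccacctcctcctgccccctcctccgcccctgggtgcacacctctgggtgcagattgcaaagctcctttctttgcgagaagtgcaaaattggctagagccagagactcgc

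The Per1 window shown held an E-box that begins at position -166 from the start and a D-box at -24. Per3 held 2 D-boxes, at -205 and -158, Nr1d1 an E-prime box at -28 on the other strand, and the Arntl window shown the receptor core that begins at position 30, past the start. Among the promoters not printed, Cry1 held an E-box at -60 and an E-prime box at -79, and Cry2 an E-prime box at -166. None of these letters was found in the windows of Dbp, Clock or Npas2. Of all 32851 promoters of the same length, 7.15% held the E-box, 4.68% the E-prime box, 3.38% the D-box and 6.45% either receptor core. The letters of the receptor core were narrowed after a looser pattern had been tried, and a match is a description of the sequence, not evidence of binding.

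The deposited values were FPKM, fragments per kilobase of gene scaled for library size, which allow levels to be compared between genes as well as between mice. Whether reads of all strains aligned equally well to these genes was not tested. Each library held 16317439 to 21562429 reads on genes, and the 10 clock genes had between 341 reads (Cry1) and 3571 reads (Dbp) in a library. Strains were compared 2 at a time on log2(FPKM + 0.1) with limma, and a gene was called different when its Benjamini-Hochberg adjusted p over all genes tested was under 0.05. Because bulk cortex was used, fewer cells of a type and less RNA per cell cannot be told apart. The 4 markers of cortical excitatory neurons were expressed in every mouse, with a summed level of 293.0 to 451 FPKM, and none of them was called in any comparison. Markers of other tissue moved in some libraries: hypothalamic Avp was 137.8 FPKM in WSB replicate 2 and 21.8 in WSB replicate 3 but at most 1.61 in the other 7 mice, the 4 hypothalamic markers summed to 0.161 to 228 FPKM in WSB and 0.746 to 2.02 elsewhere, and the summed hemoglobin and Alas2 level was 552 to 858 FPKM in C3H against 178 to 291 in the other strains. Their part in the results was not tested. The libraries also differed in how expression deviated with transcript GC content. The Spearman correlation of that deviation with GC was 0.51 in C3H replicate 1 and 0.53 in C3H replicate 3, but -0.18 in C3H replicate 2 and between -0.47 and 0.06 in B6 and WSB.

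Dbp, the D-box activator and one of the most strongly rhythmic RNAs known, differed between all 3 strains. Its level was 32.2, 32.3 and 27.7 FPKM in the B6 mice, 49.7, 43.2 and 61.5 in the C3H mice and 15.8, 16.9 and 22.0 in the WSB mice. Every C3H mouse was above every B6 mouse and every WSB mouse was below every B6 mouse. B6 averaged 30.7 ± 2.6 FPKM (SD, n = 3), C3H 51.5 ± 9.3 and WSB 18.2 ± 3.3. Between WSB and C3H the means differed 2.83-fold, a log2 difference of -1.49 with a 95% interval from -1.88 to -1.11 (limma, adjusted p = 0.00272). Dbp was lower in WSB than in B6 by 1.69-fold, a log2 difference of -0.76 ± 0.13 (SE, limma, adjusted p = 0.0178), and higher in C3H than in B6 by 1.67-fold, a log2 difference of 0.73 ± 0.13 (SE, limma, adjusted p = 0.0255). The call between WSB and C3H held without any 1 of the 6 mice and in all 11 other processing settings tried. In 1 of these settings, rescaling by median ratios, all libraries had the same factor, so it could hardly change the call. The calls against B6 were less firm. With 1 mouse left out, the WSB difference was called only without B6 replicate 3 (-0.84) or WSB replicate 3 (-0.91), and the C3H difference only without C3H replicate 2 (0.85), though every omission kept the direction, with adjusted p up to 0.0943 (limma). Dbp has the highest GC content of the 10 genes, 61.6%, and with each library's GC trend removed the C3H difference from B6 was 0.53 (adjusted p = 0.0525, limma), no longer called, whereas the difference between WSB and C3H was -1.35 (adjusted p = 0.00146, limma). On the opposite strand, 539 of the 2993 exonic bases of Dbp overlap Sphk2, and whether the counting used strand is not stated. Sphk2 itself was not called in any comparison, with log2 differences of 0.03 to 0.14.

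**Figure D1:**
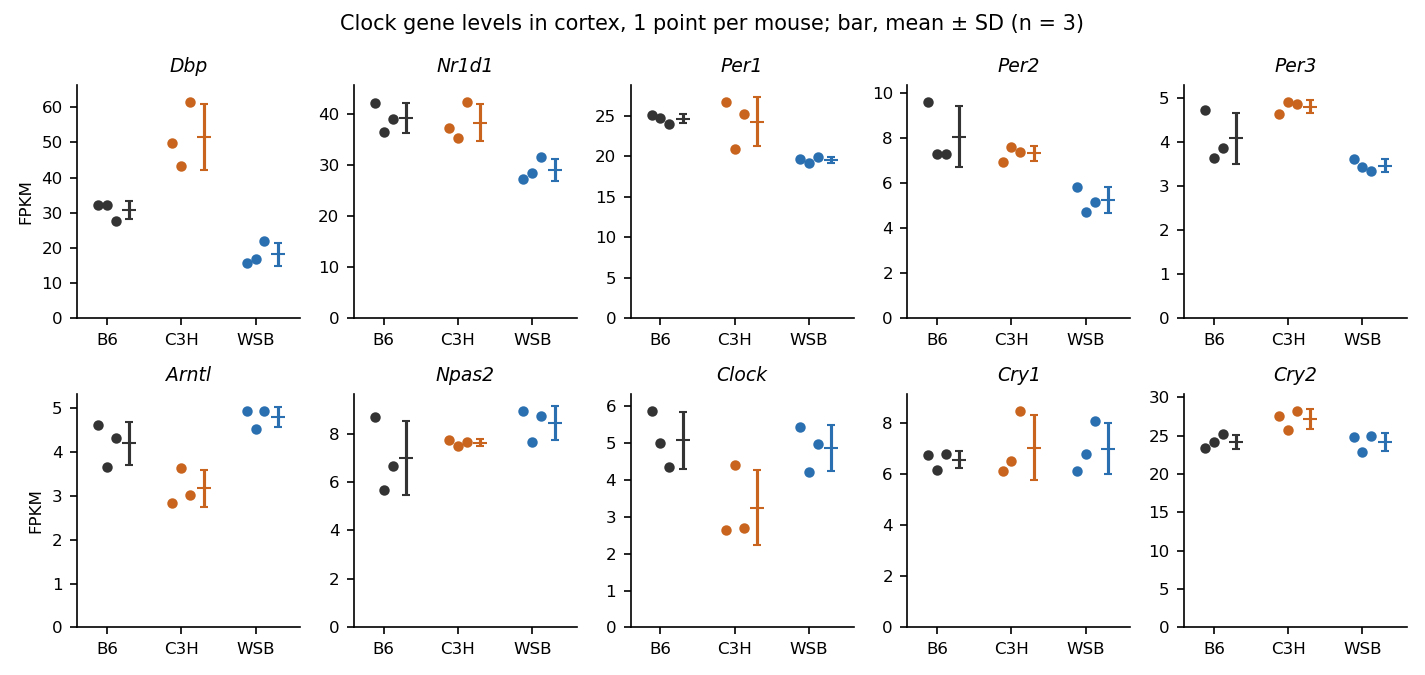
Levels of the 10 clock genes in FPKM (vertical axes, from 0) in the 3 mice of each strain (points, replicates 1 to 3 from left to right), with the mean and SD to the right of each group. Dbp separated the 3 strains without overlap, Nr1d1, Per1 and Per2 were lowest in the WSB mice, and Arntl was lowest in the C3H mice.

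Nr1d1, the nuclear receptor that represses Arntl, was lower in WSB. Its level was 42.3, 36.4 and 39.2 FPKM in B6, 37.3, 35.4 and 42.4 in C3H and 27.4, 28.4 and 31.5 in WSB. All 3 WSB mice lay below all mice of the other strains, which overlapped each other. The WSB mean of 29.1 ± 2.2 FPKM (SD, n = 3) was 1.35-fold below B6, a log2 difference of -0.43 ± 0.08 (SE, limma, adjusted p = 0.0289). Against C3H the difference was -0.40 ± 0.09 (SE, limma, adjusted p = 0.0559) and was not called, although it was called without C3H replicate 2 (-0.45, adjusted p = 0.0384, limma). The WSB difference from B6 was still called without WSB replicate 3 but not after the other 5 omissions of a mouse (adjusted p up to 0.0943, limma). Between C3H and B6 it was -0.04, with a 95% interval from -0.26 to 0.18. Of the 3077 exonic bases of Nr1d1, 263 overlap Thra on the opposite strand, and Thra was not called in any comparison.

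The Per genes, which encode the repressors that close the loop, were also lowest in WSB. Per1 was 25.1, 24.8 and 24.0 FPKM in B6, 26.7, 21.0 and 25.2 in C3H and 19.7, 19.1 and 19.9 in WSB. The WSB mice again lay below all others, and the B6 mice fell inside the C3H range. Per1 was 1.26-fold lower in WSB than in B6, a log2 difference of -0.33 ± 0.06 (SE, limma, adjusted p = 0.0214). None of the 6 omissions of a mouse kept that call (adjusted p up to 0.0994, limma), which held with the GC trend removed. Against C3H it was -0.30 ± 0.10 (SE, limma, adjusted p = 0.128), not called, and without C3H replicate 2, the lowest of the 3, it was -0.40 and called (adjusted p = 0.023, limma).

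Per2 was 9.59, 7.29 and 7.28 FPKM in B6, 6.95, 7.61 and 7.38 in C3H and 5.84, 4.73 and 5.14 in WSB. B6 replicate 1 stood above the other 8 mice, and the WSB mice were below all of the rest. Per2 was called lower in WSB against B6, 1.54-fold with a log2 difference of -0.60 ± 0.14 (SE, limma, adjusted p = 0.0478), and against C3H, 1.40-fold with a log2 difference of -0.48 ± 0.10 (SE, limma, adjusted p = 0.0437). Neither call held after any of the 6 omissions of a mouse, and neither held with the GC trend removed, although the direction was the same throughout.

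Per3 was 4.73, 3.64 and 3.87 FPKM in B6, 4.62, 4.91 and 4.85 in C3H and 3.62, 3.44 and 3.33 in WSB. The WSB mice were below every C3H mouse and just below the lowest B6 mouse, while B6 replicate 1 reached the C3H level. Only WSB against C3H was called, with a 1.38-fold lower mean in WSB and a log2 difference of -0.46 ± 0.09 (SE, limma, adjusted p = 0.0350), and with the GC trend removed it was -0.39 (adjusted p = 0.0528, limma). The call was kept without C3H replicate 2 but not after the other 5 omissions (adjusted p up to 0.13, limma). The log2 difference from B6 was -0.22 in WSB (adjusted p = 0.369) and 0.24 in C3H (adjusted p = 0.268, both limma).

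On the activating side of the loop, Arntl ran the other way. Its level was 4.60, 3.65 and 4.32 FPKM in B6, 2.84, 3.64 and 3.03 in C3H and 4.92, 4.53 and 4.93 in WSB. All C3H mice lay below all B6 mice, by a narrow margin between C3H replicate 2 and B6 replicate 2, and WSB overlapped B6 at the top. The WSB mean of 4.80 ± 0.23 FPKM (SD, n = 3) was 1.51-fold above the C3H mean of 3.17 ± 0.42 (SD, n = 3), a log2 difference of 0.59 ± 0.12 (SE, limma, adjusted p = 0.0362). This call held with the GC trend removed (0.58, adjusted p = 0.0243, limma) and without C3H replicate 2, but not after the other 5 omissions of a mouse (adjusted p up to 0.13). For Arntl neither strain differed from B6 past the threshold, with log2 differences of 0.19 in WSB (adjusted p = 0.394) and -0.39 in C3H (adjusted p = 0.150, both limma).

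Clock, the usual partner of ARNTL, varied more within strains than the other 9 genes. It was 5.87, 5.01 and 4.34 FPKM in B6, 2.65, 4.41 and 2.70 in C3H and 5.44, 4.20 and 4.96 in WSB. C3H replicates 1 and 3 were far below the other 7 mice and C3H replicate 2 fell among them. Clock also has the lowest GC content of the 10 genes, 40.9%, and the mice with low Clock were those whose expression deviated upward with GC. Its log2 difference was -0.66 ± 0.21 in C3H against B6 (SE, limma, adjusted p = 0.129) and 0.60 ± 0.21 in WSB against C3H (SE, limma, adjusted p = 0.146), neither called. Without C3H replicate 2 both were called, at -0.89 (adjusted p = 0.0209) and 0.83 (adjusted p = 0.0223, both limma), and with the GC trend removed they were -0.39 and 0.36 and not called. The difference from B6 was also called by voom.

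Npas2, which can stand in for CLOCK in the forebrain, was 8.67, 5.67 and 6.64 FPKM in B6, 7.74, 7.48 and 7.66 in C3H and 8.94, 7.64 and 8.74 in WSB. The strains overlapped, and the widest spread was within B6. None of its differences was called, the largest being 0.29 in WSB against B6 with a 95% interval from -0.08 to 0.65.

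The Cry genes, which encode the partners of the PER repressors, showed no called difference in any comparison. Cry1 was 6.74, 6.18 and 6.79 FPKM in B6, 6.13, 6.50 and 8.49 in C3H and 6.14, 6.78 and 8.10 in WSB. Its log2 differences lay between -0.00 and 0.09, with 95% intervals that reached from -0.36 to 0.39 at the widest, so differences inside that range could not be told from 0 with 3 mice per strain. Cry2 was 23.4, 24.2 and 25.2 FPKM in B6, 27.5, 25.8 and 28.3 in C3H and 24.8, 22.8 and 25.0 in WSB. Cry2 was the steadiest of the 10, with a within-strain SD of 0.065 on the log2 scale, and only 4.43% of the 13010 genes averaging 1 FPKM or more varied less. All C3H mice were above all mice of the other strains, and the difference of 0.16 from B6 was not called (adjusted p = 0.211, limma).

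**Figure D2:**
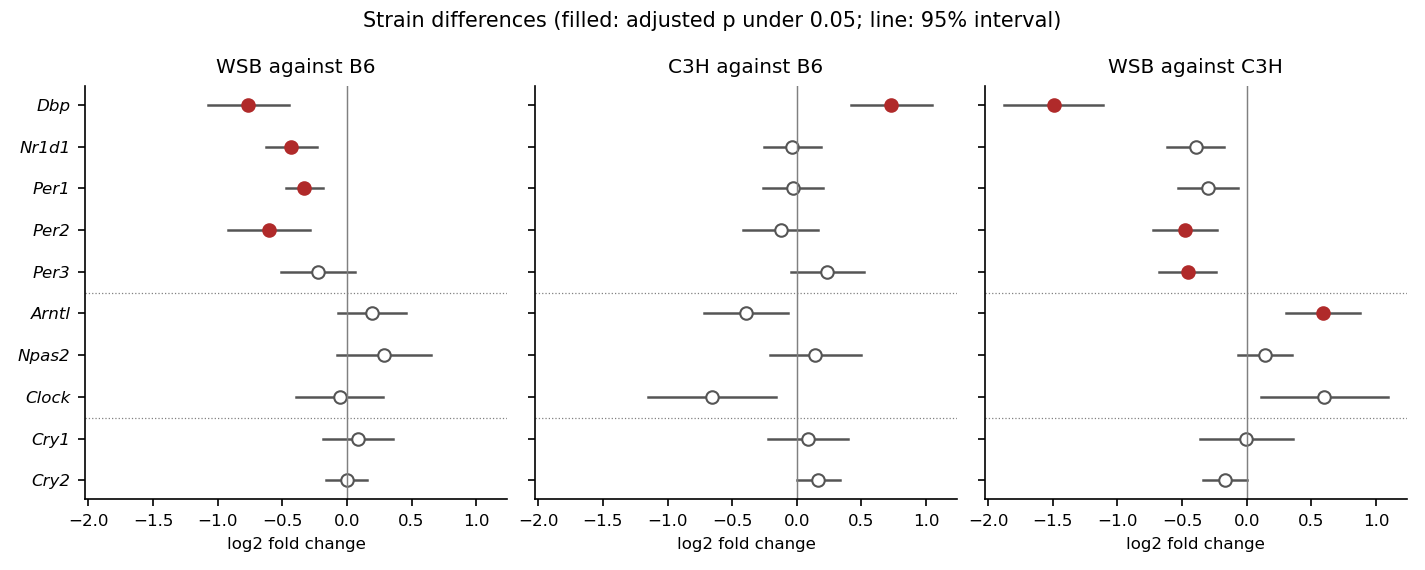
Log2 fold change of each clock gene (horizontal axis) in the 3 comparisons, with 95% intervals (lines) and filled points for genes with an adjusted p under 0.05. Dotted lines part the day-to-evening genes (top), the late-night genes (middle) and the Cry genes (bottom); in WSB against C3H all 5 genes of the top group lay below 0 and all 3 of the middle group above it.

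Counted together, 4 of the 10 genes were called in WSB against B6, all lower in WSB (Dbp, Nr1d1, Per1 and Per2), where 5.90% of the 20746 genes tested were called, 2.81% higher and 3.09% lower. In C3H against B6 only Dbp was called, higher in C3H, beside 4.64% of 20602 genes, 2.38% higher and 2.26% lower. In WSB against C3H 4 were called, Dbp, Per2 and Per3 lower and Arntl higher in WSB, beside 5.74% of 20607 genes, 2.61% higher and 3.13% lower. The levels of the 3 mice of one strain did not overlap those of the other for 5 of the 10 genes in WSB against B6, for 3 in C3H against B6 and for 7 in WSB against C3H, where the same held for 26.0%, 28.9% and 28.6% of all genes tested. The share in C3H against B6 was near that of all genes. The 3 comparisons share mice, so their counts are not independent of each other.

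By phase, the 5 day-to-evening genes (Dbp, Nr1d1, Per1, Per2 and Per3) were all lower in WSB than in C3H, with a median log2 difference of -0.46, and the 3 late-night genes (Arntl, Npas2 and Clock) were all higher, with a median of 0.59. The median over all genes tested was 0.01. These signs were the same with the GC trend removed, with the values rescaled to total reads and without C3H replicate 2. Of the 3 late-night genes, Arntl alone passed the test. WSB against B6 gave the same order less fully: all 5 day-to-evening genes were lower in WSB, with a median of -0.43, while Arntl and Npas2 were higher and Clock lower by values that were not called. C3H against B6 did not divide in this way. Of the day-to-evening genes Dbp and Per3 were higher and the other 3 lower in C3H, with a median of -0.03, and without C3H replicate 2 Per1 and Nr1d1 changed sign so that 4 were higher. Arntl and Clock were lower and Npas2 higher in C3H.

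The ratio of Dbp to Arntl in a single mouse sets an output against the gene of opposite phase. It was 6.99, 8.84 and 6.41 in B6, 17.5, 11.9 and 20.3 in C3H and 3.20, 3.73 and 4.46 in WSB. The 3 strains did not overlap in this ratio, with C3H highest and WSB lowest, which was already so for Dbp alone. The ratio of Per3 to Clock was 0.804, 0.727 and 0.892 in B6, 1.75, 1.11 and 1.80 in C3H and 0.667, 0.818 and 0.671 in WSB. It put all C3H mice above the rest but did not part B6 from WSB. Both ratios come from the values as deposited, with the GC trend left in. Dbp (61.6% GC) and Per3 (52.4%) have a higher GC content than Arntl (48.2%) and Clock (40.9%). Both ratios were highest in C3H replicates 1 and 3, the libraries with the strongest upward deviation with GC. Relative to Nr1d1, which shares its phase, Dbp also differed between strains: B6 had ratios of 0.708 to 0.886, C3H of 1.22 to 1.45 and WSB of 0.576 to 0.697. The day-to-evening genes did not keep a fixed proportion, and the higher Dbp of C3H came with Nr1d1 and Per1 levels that overlapped those of B6.

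**Figure D3:**
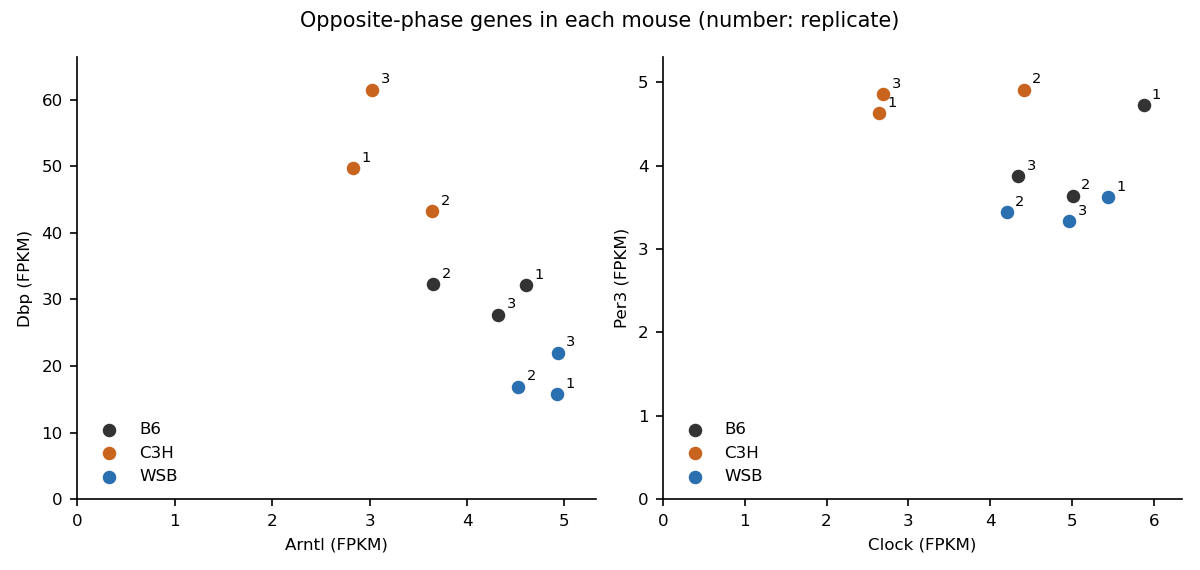
FPKM of a day-to-evening gene (vertical axis) against a late-night gene (horizontal axis) in each of the 9 mice, Dbp with Arntl on the left and Per3 with Clock on the right, coloured by strain and numbered by replicate. The GC trend of the libraries was left in. The C3H mice lay at high Dbp and low Arntl (43.2 to 61.5 and 2.84 to 3.64 FPKM), the WSB mice at low Dbp and high Arntl (15.8 to 22.0 and 4.53 to 4.93 FPKM), and the strains were less separate on the right.

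Within strains the 2 genes were only weakly opposed. After the mean of each strain was subtracted, the Pearson correlation of Dbp with Arntl over the 9 mice was -0.30, while Dbp moved most with Nr1d1 (0.79) and Cry1 (0.78) and Arntl with Clock (0.74). Genes of opposite phase also moved with Arntl within strains, Per3 at 0.66 and Per2 at 0.64, while Per1 moved against it at -0.64. Of the 13010 genes averaging 1 FPKM or more, 97.9% had a lower correlation with Dbp than Nr1d1 had, and 97.6% than Cry1. For Arntl these shares were 92.3% for Clock, 87.0% for Per3, 86.0% for Per2 and 14.1% for Per1. These values rest on 9 mice whose libraries also share depth and GC effects, and are given as a description. Outside the clock, the 5 genes that followed Dbp most closely by this measure were Ttyh2 (0.98), Vti1a, Ubap2l, Slc25a28 and Pcdhga12 (0.96), and those that followed Arntl were Txndc16 (0.99), Dennd5b, Med12l, 2610316D01Rik and Prkdc (0.98). The transcripts that followed Dbp were 49.1% to 55.7% GC and those that followed Arntl 43.3% to 47.0%. The within-strain SD of the 10 genes ran from 0.065 (Cry2) to 0.286 (Clock) on the log2 scale, around the median of 0.151 for genes of at least 1 FPKM.

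A further 25 genes of the clock, listed by function, were read in the same way. In WSB against B6 1 was called (4%), in C3H against B6 1 (4%) and in WSB against C3H 4 (16%), where 5.90%, 4.64% and 5.74% of all genes were called, so the shares in both comparisons with B6 were not above those of all genes. Ciart (CHRONO), an E-box target that represses the ARNTL pair, was 7.48, 6.37 and 6.99 FPKM in B6, 10.03, 7.97 and 9.94 in C3H and 3.38, 4.29 and 3.66 in WSB. The strains did not overlap and stood in the same order as for Dbp. Its log2 difference was -1.28 ± 0.13 in WSB against C3H (SE, limma, adjusted p = 0.00213), -0.87 ± 0.12 in WSB against B6 (SE, limma, adjusted p = 0.0063) and 0.41 ± 0.12 in C3H against B6 (SE, limma, adjusted p = 0.0979). Both WSB calls held in all 11 other settings, of which rescaling by median ratios could hardly change them, and without any 1 mouse.

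Tef, a D-box activator of the same family as Dbp, was 53.8, 54.9 and 58.2 FPKM in B6, 70.1, 64.4 and 67.3 in C3H and 47.7, 48.5 and 46.9 in WSB. It too separated the strains in that order, and WSB was lower than C3H by 0.49 on the log2 scale (-0.49 ± 0.06, SE, limma, adjusted p = 0.00619), a call that held in every setting and omission. Usp2, a rhythmic deubiquitinase, was 16.2, 16.5 and 17.3 FPKM in B6, 22.9, 19.9 and 23.3 in C3H and 16.1, 14.9 and 15.9 in WSB. The C3H mice stood above the rest, with a log2 difference of 0.39 from B6 (limma, adjusted p = 0.0442) and of -0.49 for WSB against C3H (limma, adjusted p = 0.0195). Both calls were kept without C3H replicate 2 and lost after each of the other 5 omissions (adjusted p up to 0.165 and 0.0921).

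Rorb, a receptor of the family that competes with NR1D1 for its DNA element, ran opposite to these. It was 3.11, 3.46 and 3.73 FPKM in B6, 2.81, 3.29 and 2.41 in C3H and 4.86, 4.13 and 4.58 in WSB, and was called higher in WSB than in C3H at 0.66 ± 0.14 (SE, limma, adjusted p = 0.0381), a call kept only without C3H replicate 2 among the 6 omissions. Rora and Nr1d2 were not called. Fbxl21, Tipin and Tfrc in C3H against B6, Bhlhe40 in WSB against B6, and Tfrc in WSB against C3H were among the 3 largest differences of the 25 in those comparisons and were not called, with log2 values of -0.66, 0.56, -0.50, -0.47 and 0.57. None of the 6 genes for clock kinases and protein turnover, among them Csnk1d and Csnk1e, was called, and none of the 3 relatives and partners Arntl2, Timeless and Tipin. The median log2 difference of the 25 genes was -0.11, -0.17 and 0.04 in WSB against B6, C3H against B6 and WSB against C3H.

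**Figure D4:**
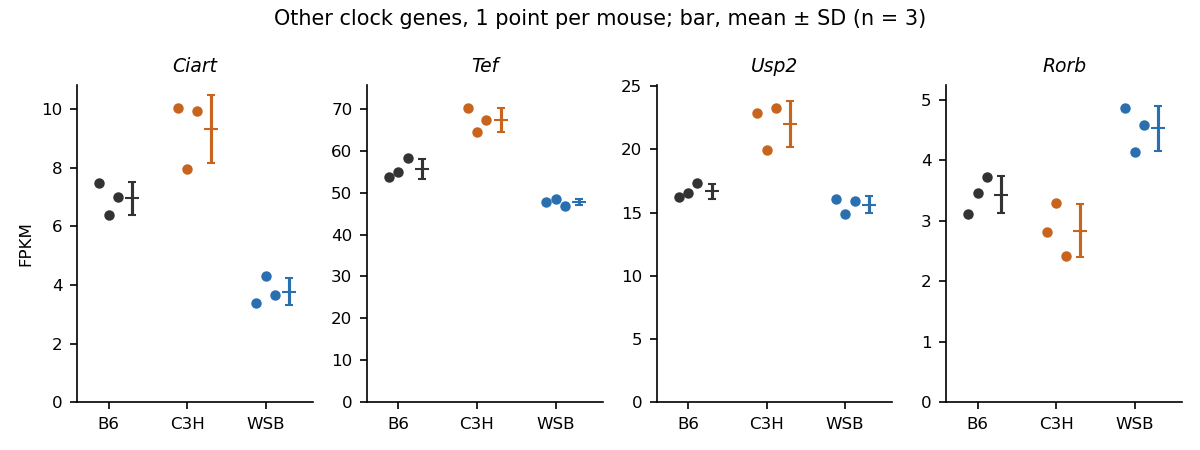
FPKM (vertical axes, from 0) of the 4 further clock genes with an adjusted p under 0.05 in any comparison, 1 point per mouse, with the mean and SD to the right of each strain. Ciart, Tef and Usp2 were highest in C3H (up to 10.03, 70.1 and 23.3 FPKM) and Rorb was highest in WSB (4.13 to 4.86 FPKM).

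Clock genes in brain also respond to stress hormone, neuronal activity and temperature, so genes that report on these were read beside them. Of 7 corticosterone-responsive genes, among them Fkbp5, Sgk1 and Tsc22d3, none was called in any comparison. Their median log2 difference in WSB against B6 was 0.29, where that of all genes was 0.00. Sgk1 (0.62), Sult1a1 (0.36) and Plin4 (0.89) did not overlap between those strains, which also held for 26.0% of all genes tested. WSB replicate 2, one of the mice with hypothalamic RNAs, was the highest of the 9 mice in several stress and activity genes, with 27.3 FPKM of Sgk1, 35.6 of Tsc22d3, 19.7 of Fos, 115 of Arc and 14.8 of Npas4. Of 8 activity-induced genes Egr1 alone was called, lower in WSB than in B6 at -0.58 (limma, adjusted p = 0.0381). Its level was 102, 75.5 and 90.2 FPKM in B6, 77.7, 61.9 and 75.8 in C3H and 56.0, 56.4 and 66.0 in WSB. Of 7 temperature-responsive genes, the cold-induced RNA-binding protein Cirbp, which is itself rhythmic, was higher in C3H than in B6 at 0.46 (limma, adjusted p = 0.0214) and lower in WSB than in C3H at -0.40 (limma, adjusted p = 0.0244). It was 24.9, 29.1 and 28.9 FPKM in B6, 38.8, 37.0 and 38.3 in C3H and 27.3, 28.0 and 31.2 in WSB. Rbm3, cold-induced like Cirbp, was lower in WSB than in C3H at -0.86 (limma, adjusted p = 0.0286), and the chaperone gene Hspa8 was lower in C3H than in B6 at -0.55 (limma, adjusted p = 0.0121). With a mouse left out these 5 calls were kept in 1 to 3 of 6 omissions. Of all genes tested, 5.90% were called in WSB against B6, 4.64% in C3H against B6 and 5.74% in WSB against C3H. The C3H mice carried the highest Cirbp beside the highest Dbp and Tef. The part of temperature, activity or hormone in the clock genes' levels was not tested.

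The 2 WSB mice with hypothalamic RNAs were left out in turn. Without replicate 2, which had the most, Dbp was -0.72 in WSB against B6 and -1.45 in WSB against C3H, and Arntl was 0.63 in WSB against C3H. Only the second of these was still called, with 2 WSB mice in the fit (adjusted p = 0.0166, limma), and none of the 4 clock genes called in WSB against B6 was called without that mouse. Without replicate 3, Dbp was -0.91 in WSB against B6 (adjusted p = 0.0062, limma) and -1.64 in WSB against C3H (adjusted p = 0.00455, limma), both called, and Arntl was 0.57 in WSB against C3H and not called (adjusted p = 0.108, limma). Either omission leaves the other such mouse in. In WSB replicate 1, where Avp and Oxt were listed at 0, Dbp was 15.8 FPKM and Arntl 4.92, the lowest Dbp of the 9 mice and an Arntl level above all B6 and C3H mice. Of the cell type markers, Mog of oligodendrocytes was lower in WSB than in C3H at -0.92 (limma, adjusted p = 0.0407), and Csf1r of microglia was lower in WSB than in B6 at -0.38 (limma, adjusted p = 0.0154). All 3 red blood cell genes were higher in C3H than in B6 and in WSB, and Hba-a1 was also higher in WSB than in B6. None of the marker genes for inhibitory neurons, astrocytes, endothelium, striatum, hippocampus, choroid plexus or hypothalamus was called in any comparison, although the choroid plexus markers summed to 63.7 to 760 FPKM within B6 alone. Striatum markers were uneven too, with a sum of 112 FPKM in B6 replicate 1 and 22.7 in the lowest B6 mouse. The highest WSB sum was 62.3 FPKM, and the median log2 difference of these 4 genes in WSB against B6 was -0.70. Among the B6 mice, replicate 1 was also highest in Per1, Per2, Per3, Arntl, Clock, Npas2 and Nr1d1, but not in Dbp, Cry1 or Cry2. The part of these cells in the clock genes' levels was not tested.

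**Figure D5:**
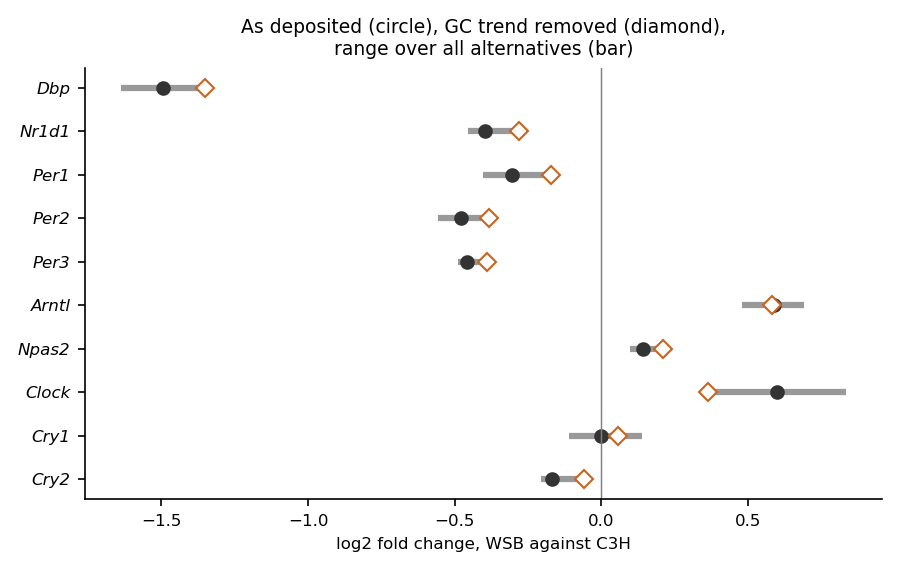
Log2 difference between WSB and C3H (horizontal axis) for each clock gene as deposited (circles), with each library's GC trend removed (diamonds) and as the range over all alternatives and omissions of a mouse (bars). Dbp stayed between -1.64 and -1.35 and Arntl between 0.48 and 0.69, while the diamonds of Clock, Per1 and Nr1d1 lay nearer 0 than their circles.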

How the data were processed

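Paired-end reads of cortex mRNA were trimmed with Cutadapt and counted on genes with HTSeq, and the authors deposited FPKM per gene and mouse; STAR, HTSeq and DESeq2 stand in the submitters' processing notes without versions. The genome build is not given in the sources used here; of 54532 identifiers 54409 were in GENCODE M21, 53499 with the same coordinates. FPKM times gene length gave whole reads for 100% of values (tolerance 0.01), used for depth and voom weights. No column of values was left unused. The 3 mice of a strain came from the labels, and p-values measure only the spread between them.

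Strains were compared with limma 3.58.1 (R 4.3.3, two-sided, eBayes with a trend) on log2(FPKM + 0.1) for genes averaging 0.1 FPKM or more over the 6 mice, with Benjamini-Hochberg adjustment over all genes tested and a threshold of 0.05; a fold change on this scale understates that of low genes. The fit was tested on simulated data, where many changes larger than most of those seen here went uncalled with 3 mice per strain. Smaller changes were not simulated. A gene not called is therefore not shown to be alike between strains. The recovery asked of that test was lowered to larger changes after its first run. The 10 genes, the lists and the phase groups were chosen with earlier results of these data known. Named genes were all 10, list genes past the threshold, the 3 largest differences of the 25 further clock genes per comparison and the 5 nearest patterns; a few list genes are not reported here. Alternatives were a pseudocount of 1 or 0.01, a minimum mean of 1 FPKM or none, rescaling by median ratios or total reads, all strains in 1 fit, eBayes without a trend, voom, the replicate number as a block, removal of each library's GC trend (GC content of 54409 genes) and leaving out each mouse. Rescaling by median ratios divided every library by the same factor, 1.0087, so it could hardly change a result. Same-numbered mice deviated with correlations of -0.157 to 0.037, and the main fits used no replicate block. These correlations cannot show whether same-numbered mice shared a collection hour or a batch.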

Additional observations from a re-analysis of the deposited data

Results flagged for a closer look

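Among the 10 clock genes, Dbp, Arntl and Per3 lay on opposite sides of B6 in WSB and C3H, and the difference between the 2 strains, tested by limma on the WSB and C3H mice, passed the threshold. The log2 difference of WSB from C3H was -1.494 for Dbp (adjusted p = 0.00272), 0.5895 for Arntl (adjusted p = 0.0362) and -0.458 for Per3 (adjusted p = 0.035). For Dbp each strain also differed from B6 by its own test, and for Arntl and Per3 neither did. The same pattern was met by 4 of the 25 further clock genes, Ciart at -1.279 (adjusted p = 0.00213), Tef at -0.4944 (adjusted p = 0.00619), Usp2 at -0.4894 (adjusted p = 0.0195) and Rorb at 0.6629 (adjusted p = 0.0381). Rorb and Arntl were high where the other 5 were low. The share of all genes that meet this pattern was not counted, so the pattern is not shown to be particular to clock genes.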

How the results depend on the processing

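The directions of the called clock genes held under every alternative and omission of a mouse, but most calls did not. Called clock genes in WSB against B6 (4), C3H against B6 (1) and WSB against C3H (4) became 0, 0 and 1 by eBayes without a trend and 1, 0 and 1 with the replicate block, where genes called fell to 754, 480 and 531 of 1224, 956 and 1182. C3H against B6 had 0 with the GC trend removed and 2 by voom (1488 genes called). WSB against C3H had 2 with no filter, after rescaling to total reads or with the GC trend removed. With a mouse left out, called clock genes were 0 to 2, 0 to 2 and 1 to 6, and genes called 651 to 825, 498 to 2301 and 475 to 2002, both highest without C3H replicate 2 in the last 2 comparisons. Values near 0 changed sign. With a mouse left out, WSB against B6 ran from -0.161 to 0.053 for Clock, -0.025 to 0.172 for Cry1 and -0.030 to 0.038 for Cry2. C3H against B6 ran from -0.100 to 0.075 for Per1, -0.192 to 0.0044 for Per2, -0.055 to 0.177 for Cry1 and -0.110 to 0.021 for Nr1d1, and WSB against C3H from -0.110 to 0.138 for Cry1. Cry2 in WSB against B6 was 0.023 after rescaling to total reads, and Cry1 in WSB against C3H was 0.037 so rescaled, 0.00037 by voom and 0.058 with the GC trend removed. The causes were not tested. Of the values recomputed for single genes, 642 kept direction and call, 122 lost the call, 16 gained it and 17 changed sign. These counts include the rescaling by median ratios, which could hardly change a value.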
